A study of Mus musculus with 16 samples.

Results

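The 9 genes examined here encode the route by which Nodal and activin signals reach the nucleus of mouse embryonic stem (ES) cells: the ligand gene Nodal, the co-receptor gene Tdgf1, the receptor genes Acvr1b, Acvr2a and Acvr2b, the SMAD genes Smad2, Smad3 and Smad4, and Foxh1, the gene of a SMAD-binding transcription factor. They were taken by gene name out of 24320 names used in the table of Pml-knockout cells and 24394 in each of the other tables. All 9 were present in all 3 tables, and all 9 passed the filter on low values in each. The data are RNA-seq libraries of the E14Tg2a.IV line, a male-derived mouse ES cell line that the labels give as strain C57BL/6; 16 libraries form 8 groups of 2. Every group was grown without feeder cells in serum medium with leukemia inhibitory factor. The first table compares cells labelled Pml KO with wild-type cells, both untreated. The second compares wild-type cells given 200 µM sodium arsenite, an oxidative stressor, for 2 h with untreated wild-type cells. The third holds cells labelled Trim33 KO and cells labelled WT, each given either 50 ng/ml activin A or 10 µM SB431542 for 2 h, with no untreated group. Activin A is a ligand of the receptors in question, and SB431542 blocks the kinase of the type I receptors. The labels do not say how the knockouts were made, whether a line is 1 clone, or whether a group's libraries stem from separate cultures, and the growth notes also name the CCE line without saying where it was used. The p-values below therefore measure only the spread between these libraries, which may be technical.

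Nodal is a secreted ligand of the TGF-beta family. It binds type II receptors (ACVR2A, ACVR2B) and the type I receptor ALK4, the product of Acvr1b, and needs the membrane-anchored co-receptor Cripto, the product of Tdgf1; activin uses the same receptors without Cripto. The active type I receptor phosphorylates SMAD2 and SMAD3, which join SMAD4, enter the nucleus and act on DNA with partners such as FOXH1. In the mouse embryo Nodal is known to raise its own transcription through FOXH1-bound sites and to induce its own secreted inhibitors, Lefty1 and Lefty2.

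The sequences before the start sites of Nodal and Tdgf1 are given first because these genes, the ligand and its co-receptor, were called different in more of the comparisons below than the other 7. RefSeq promoter windows (GRCm38.p6, 250 bases before to 50 after the annotated start) were matched for 6 of the 9 genes. The Nodal window lies at chr10:61417722-61418021 on the plus strand and the Tdgf1 window at chr9:110946109-110946408 on the minus strand; both are written 5′ to 3′ in the direction of transcription. Capitals mark matches to 2 motifs that were searched on both strands: a FOXH1-type motif, TGTNNATT, and a SMAD-type motif, CAGAC.
Nodal: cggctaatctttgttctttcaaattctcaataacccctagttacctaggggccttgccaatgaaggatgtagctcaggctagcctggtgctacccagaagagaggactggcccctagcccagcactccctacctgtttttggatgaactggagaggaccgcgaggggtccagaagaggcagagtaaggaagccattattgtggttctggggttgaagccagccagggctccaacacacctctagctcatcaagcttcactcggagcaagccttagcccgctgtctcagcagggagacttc
Tdgf1: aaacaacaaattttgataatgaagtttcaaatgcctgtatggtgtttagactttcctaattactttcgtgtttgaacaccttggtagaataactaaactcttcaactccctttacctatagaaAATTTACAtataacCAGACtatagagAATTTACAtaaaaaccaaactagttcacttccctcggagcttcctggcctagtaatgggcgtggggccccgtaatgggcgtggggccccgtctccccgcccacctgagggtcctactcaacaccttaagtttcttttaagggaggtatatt
The Tdgf1 window held 2 FOXH1-type matches, both as AATTTACA on the printed strand, beginning at positions -127 and -101 from the start site. A CAGAC match began at -113, between them. In the FOXH1-type motif N stands for any base. Both AATTTACA matches carry the motif on the strand opposite to the printed one. Each open position is T on the printed strand and therefore A in the direction in which the motif is written. Whether FOXH1 accepts A at these positions was not tested. The term FOXH1-type therefore means only that the fixed letters match, and not that Tdgf1 carries FOXH1 sites. The Nodal window held neither motif; no match says only that these letters are not in this window. A FOXH1-type match occurred in 12.2% of all 32851 RefSeq windows of that length and a SMAD-type match in 49.6%. A match is a description of the sequence and not a binding site. The windows also differed in CpG content: there were 5 CpG dinucleotides in the Nodal window and 7 in that of Tdgf1, against a median of 7 over all windows. The receptor and SMAD windows held more, with 25 for Smad3, 27 for Acvr2b, 51 for Acvr1b and 54 for Acvr2a.

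Depth could be recovered from the whole-read steps of low values in the arsenite table (46700000 to 48400000 reads per library) and the Trim33 table (31100000 to 39400000) and not for the Pml table, whose depth is unknown. The 8 ES cell markers each had a group mean of at least 1 in all 8 groups. Pml was at 32.0 and 33.5 FPKM (fragments per kilobase, scaled for library size) in the Pml-knockout libraries, against 49.8 and 45.1 FPKM in wild type, so its transcript was reduced but present. Trim33 was at 2.53 and 2.79 RPKM (reads per kilobase, scaled likewise; the Trim33 table names no unit and was read as RPKM) in the libraries labelled knockout with activin A, against 20.1 and 23.5 in those labelled wild type with activin A. With SB431542 the order was the opposite of the labels: 18.3 and 24.6 RPKM in the libraries labelled knockout, against 2.94 and 2.44 in those labelled wild type. Libraries of the SB431542 groups are therefore called by their labels throughout, and every direction that depends on those genotype labels rests on labels that Trim33 contradicts. Eif2s3y, a Y-linked translation factor gene, was lower in the Pml knockout too (1.102 and 0.753 FPKM, against 16.2 and 20.6 in wild type), and in the Trim33 table it was high in the libraries where Trim33 was high (38.3 to 41.0 RPKM) and at most 0.143 RPKM in the others. A difference between cell lines other than the named knockout cannot be told apart from it.

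Levels were compared between genes on the length-scaled FPKM and RPKM values. Tdgf1 was the most abundant of the 9 transcripts in all 8 groups. In wild-type cells of the Pml table it averaged 397 ± 8.68 FPKM (SD, n = 2), the 98th percentile of genes with a mean of at least 1. Nodal (39.0 ± 0.303 FPKM) and Foxh1 (38.8 ± 3.43) followed with overlapping libraries, then Smad4 (23.2 ± 0.367), the shared SMAD. The receptor genes Acvr1b (12.1 ± 1.06 FPKM) and Acvr2b (9.68 ± 0.685) and the signal-carrying Smad2 (8.37 ± 0.0810) lay lower, with no overlap between neighbours in this order. Smad3 (3.96 ± 0.0191 FPKM) and Acvr2a (2.67 ± 0.210), the other receptor-regulated SMAD and the other type II receptor, were lowest. Untreated cells of the arsenite table had Tdgf1 first at 492 ± 7.92 RPKM and Smad3 last at 3.34 ± 0.291, and in each of the 4 Trim33-table groups Smad3 was last as well. In wild type with activin A, Tdgf1 stood at 723 ± 53.1 RPKM and Smad3 at 3.06 ± 0.255. Smad2 stood above Smad3 in every library. The tables were normalised separately, so levels are not compared across them. Smad2 lies on chromosome 18 at 76241580 to 76310963 (plus strand) and Smad4 on the same chromosome at 73639009 to 73703780 (minus strand). Smad3 (63646767 to 63757994, minus) and Acvr2b (119402118 to 119434995, plus) share chromosome 9 with Tdgf1 (110939603 to 110946158, minus). Acvr1b (101174067 to 101213684, plus) and Foxh1 (76668225 to 76669948, minus) lie on chromosome 15, Acvr2a on chromosome 2 (48814109 to 48903269, plus) and Nodal on chromosome 10 (61417972 to 61425338, plus), in GENCODE gene models of GRCm38, which is the mm10 build of the deposited data.

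**Figure D1:**
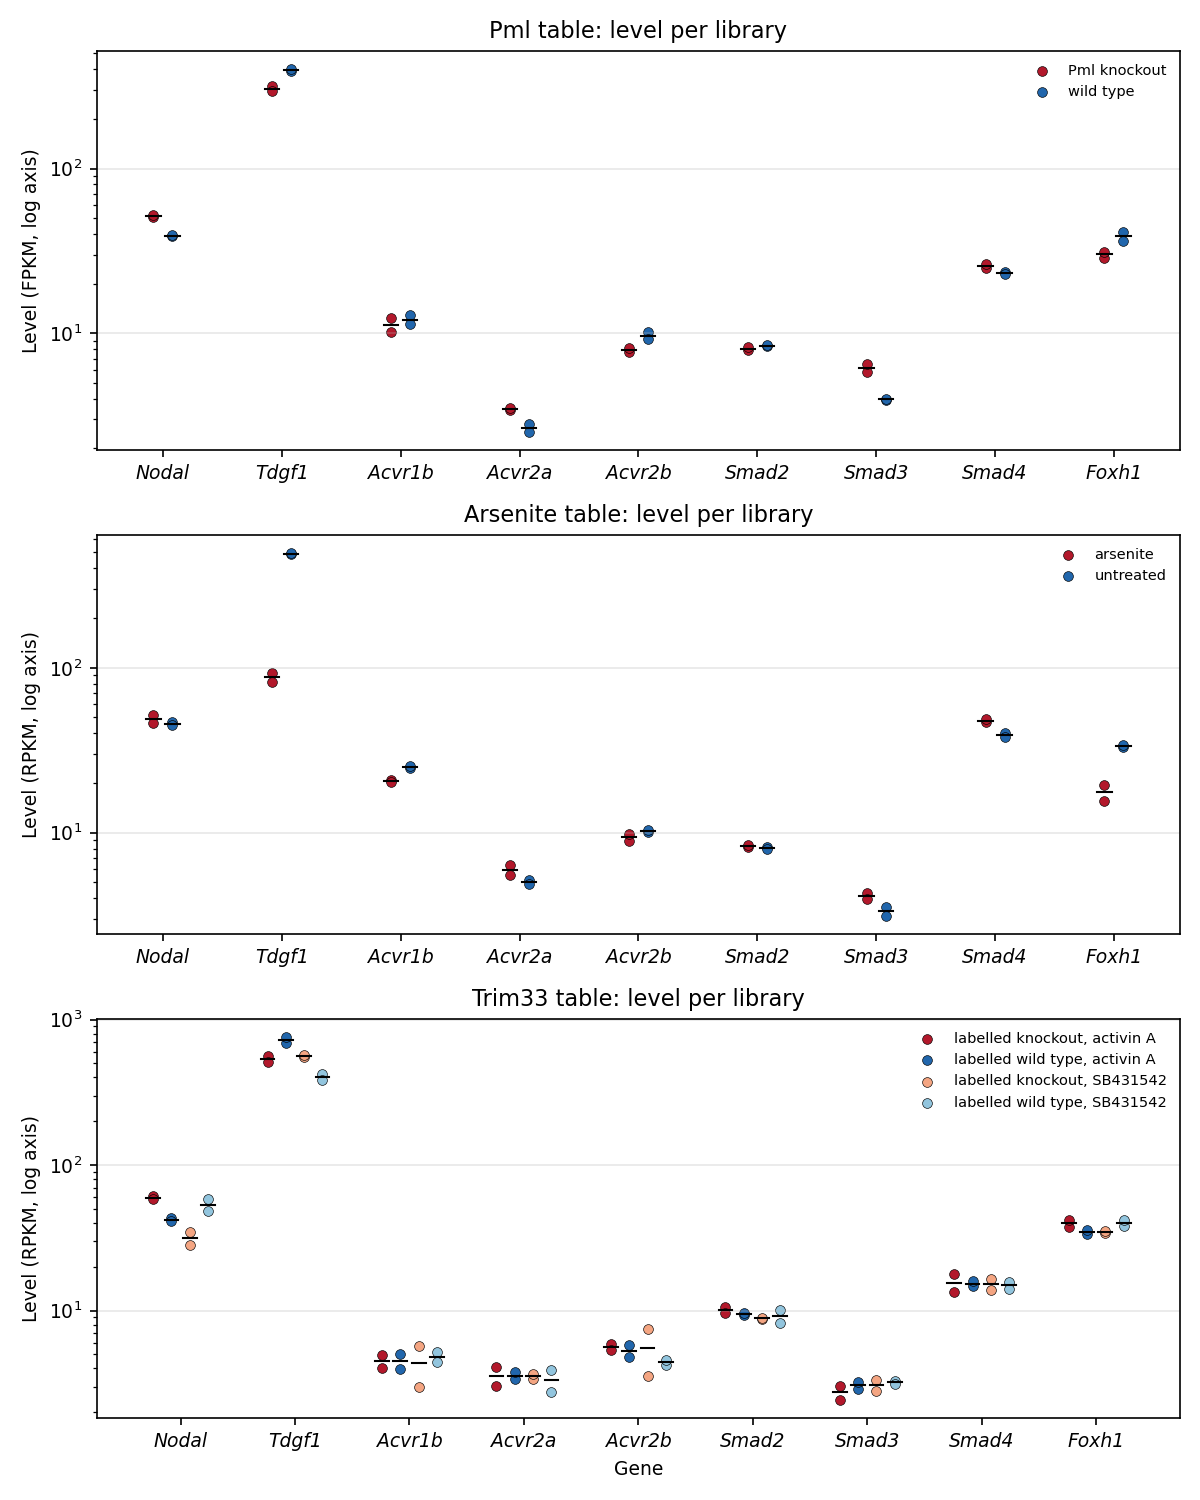
Level of each gene in each library (points; short lines are group means of 2 libraries) in the Pml table in FPKM and in the arsenite and Trim33 tables in RPKM, on log axes, with Pml knockout left of wild type, arsenite left of untreated, and labelled knockout left of labelled wild type within each treatment. Tdgf1 is the highest of the 9 in every group; in the arsenite table its points are at 92.6 and 82.4 with arsenite and at 486 and 497 without.

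In Pml-knockout cells the ligand gene Nodal and the SMAD gene Smad3 rose, while the co-receptor gene Tdgf1, the transcription factor gene Foxh1 and the type II receptor gene Acvr2b fell. The changes lay between 1.44-fold higher for Smad3 and 0.770 of the wild-type level for Tdgf1 (folds are on the log2(value + 1) scale, which understates changes of low genes). The comparison asked which transcripts differ when PML, the scaffold of PML nuclear bodies, is lost. A gene was called at a Benjamini-Hochberg adjusted p under 0.05 in limma over all 11648 genes tested. By that rule 5 of the 9 were called, 2 higher and 3 lower. Over all genes tested 35.5% were called, 16.6% higher and 18.9% lower, so calls were common in this comparison. The median log2 fold change was -0.05 over the 9 genes and -0.02 over all genes.

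Nodal had 50.8 and 52.2 FPKM in the Pml-knockout libraries, against 38.8 and 39.2 in wild type. Both knockout libraries lay above both wild-type ones, and the log2 fold change was 0.39 ± 0.05 (SE; limma, adjusted p = 6.84e-04). Its co-receptor moved the other way: Tdgf1 had 315 and 296 FPKM in knockout, against 391 and 403 in wild type (-0.38 ± 0.05, adjusted p = 6.65e-04). The ratio of Tdgf1 to Nodal was therefore 6.20 and 5.66 in the knockout libraries and 10.1 and 10.3 in wild type. These directions held under all 9 alternatives for both genes, each with a call.

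Among the receptor genes, Acvr2b had 7.65 and 8.18 FPKM in knockout, against 10.2 and 9.20 in wild type (-0.26 ± 0.08, adjusted p = 0.0429). That call was lost with no filter on low values (adjusted p = 0.106) and on leaving out wild-type library 1 or either knockout library (adjusted p = 0.182, 0.183 and 0.0526). The other type II receptor gene, Acvr2a, had 3.41 and 3.54 FPKM in knockout, against 2.82 and 2.52 in wild type (0.29 ± 0.10, adjusted p = 0.0549, not called). The libraries of both genes separated by genotype, with Acvr2b lower and Acvr2a higher in knockout. The ratio of Acvr2b to Acvr2a was 2.24 and 2.31 in knockout and 3.61 and 3.65 in wild type. The type I receptor gene Acvr1b had 10.2 and 12.3 FPKM in knockout, against 12.8 and 11.3 in wild type. Its libraries overlapped, and the difference was not called (adjusted p = 0.494).

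Among the SMAD genes, Smad3 had 5.83 and 6.46 FPKM in knockout, against 3.95 and 3.97 in wild type (0.52 ± 0.09, adjusted p = 0.00293). This was the largest log2 fold change of the 9 genes in this comparison. Its partner Smad2 had 7.89 and 8.22 FPKM in knockout, against 8.31 and 8.43 in wild type, and the 95% interval of its log2 fold change ran from -0.23 to 0.13. Smad3 was thus higher beside a Smad2 that was not called: the ratio of Smad2 to Smad3 was 1.35 and 1.27 in knockout and 2.11 and 2.12 in wild type. Smad4, needed by both, had 24.96 and 26.4 FPKM in knockout, against 23.4 and 22.9 in wild type (0.14 ± 0.06, adjusted p = 0.103, not called). Foxh1, which recruits the SMAD complex to DNA, had 28.8 and 31.3 FPKM in knockout, against 41.3 and 36.4 in wild type (-0.36 ± 0.07, adjusted p = 0.00691). Its libraries did not overlap, and its call was lost with no filter on low values (adjusted p = 0.0610).

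Markers of other cell types moved with the same comparison. The summed level of the 8 trophectoderm markers was 718 and 731 FPKM in knockout, against 71.3 and 65.8 in wild type, and all 7 tested were called higher; Elf5 was under 1 in both groups and Cdx2 and Gata3 in wild type. The 8 fibroblast markers summed to 535 and 564 FPKM in knockout, against 106 and 108 in wild type, with 6 of 7 tested called higher, 1 lower, and Lum listed at 0 in wild type. The 6 mesendoderm markers summed to 19.2 and 19.8 FPKM in knockout, against 3.67 and 3.48 in wild type. Only 2 of them were tested, T and Wnt3, both called higher. Mixl1, Gsc, Foxa2 and Mesp1 averaged under 1 in both groups. The 6 primitive endoderm markers summed to 3.23 and 3.13 FPKM in knockout, against 7.21 and 7.68 in wild type. Of these, 2 of 3 tested were called lower, and 5 averaged under 1 in knockout. The 8 ES cell markers summed to 7682 and 7444 FPKM in knockout, against 7748 and 7757 in wild type, with 3 of 8 called lower. Their part in the changes of the 9 genes was not tested, and in bulk RNA fewer cells of a type and less RNA per cell cannot be told apart.

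The rest of the pathway went both ways in the Pml knockout, where 35.5% of all genes tested were called, 16.6% higher and 18.9% lower. Of 10 other ligand genes of the family, 6 were tested, and 3 rose and 2 fell (median log2 fold change 0.07): Inhbb, which encodes the activin beta-B subunit, fell to 9.23 FPKM in knockout, against 27.2 in wild type, and Tgfb2 rose to 4.65, against 0.234. Of 9 inhibitor genes, 6 were tested, and 2 rose and 2 fell (median 0.24). The Nodal inhibitor genes Lefty1 (45.6 FPKM in knockout, against 71.9 in wild type) and Lefty2 (43.9, against 72.3) fell. Tmeff1, which encodes a membrane protein shown in frog embryos to inhibit Nodal through Cripto, rose (72.3, against 45.2), as did the follistatin gene Fst (3.16, against 1.31). The within-library ratio of Lefty1 to Nodal was 0.899 and 0.870 in knockout and 2.01 and 1.68 in wild type. Of 12 inhibitory SMAD, corepressor and ubiquitin ligase genes, 2 rose and none fell (median 0.09): Tgif2 (0.35 ± 0.06) and Pmepa1 (0.31 ± 0.09). Of 7 SMAD partner and adaptor genes, 3 fell (median -0.16), among them Zfyve9, which encodes the adaptor that presents SMAD2 and SMAD3 to the receptor (5.51 FPKM in knockout, against 7.23 in wild type). Of 3 tested other receptor and co-receptor genes, 2 rose (median 0.60), Eng (10.5, against 6.58) and Tgfbr2 (1.36, against 0.402). Of the convertase genes whose products cut the Nodal precursor, Furin rose (9.62, against 5.47) and Pcsk6 fell (10.5, against 13.2). Of 5 tested genes of the BMP branch, 1 rose (median 0.19), Acvr1 (3.27, against 2.16). Of 12 target genes 7 were tested, and 3 rose and 2 fell (median 0.18): T rose to 11.2 FPKM in knockout, against 1.54 in wild type, beside the fall of Lefty1 and Lefty2.

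**Figure D2:**
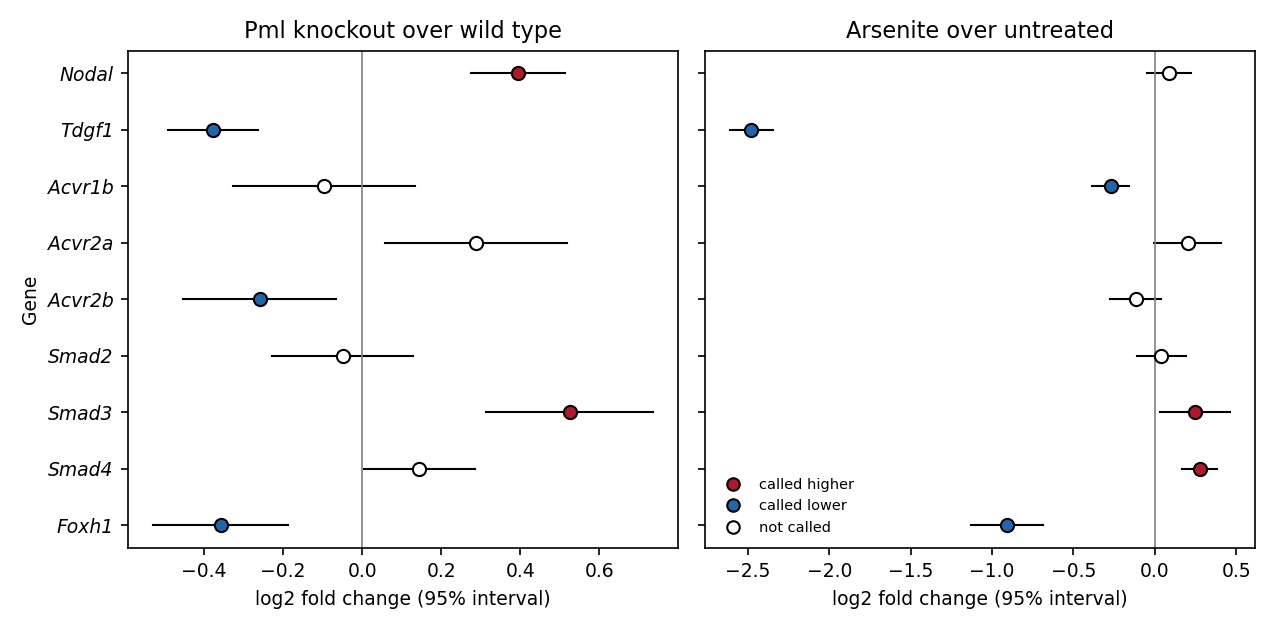
Log2 fold change (x axis, on the log2(value + 1) scale; bars are 95% intervals) of each gene in Pml-knockout over wild-type cells (left) and arsenite-treated over untreated cells (right, on a wider axis), 2 libraries a group; filled points (red higher, blue lower) passed adjusted p under 0.05 in limma. Nodal is at 0.39 in the Pml knockout and at 0.086 with arsenite, and Tdgf1 is at -0.38 and -2.48.

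With 2 h of arsenite, Tdgf1 and Foxh1 fell most among the 9 genes and Acvr1b fell slightly, while Smad4 and Smad3 were called higher and Nodal was not called. Tdgf1 had 92.6 and 82.4 RPKM in arsenite-treated libraries, against 486 and 497 in untreated ones, a fold of 0.179 (log2 fold change -2.48 ± 0.06, SE; limma, adjusted p = 1.80e-07). Foxh1 had 19.6 and 15.5 RPKM with arsenite, against 33.1 and 34.1 without (-0.91 ± 0.09, adjusted p = 1.08e-04). Both genes had no overlap between groups, and both kept their call under all 8 alternatives. The comparison asked how ES cell transcripts respond to the stressor. By the same rule 5 of the 9 were called, 2 higher and 3 lower. Over all 12136 genes tested 67.7% were called, 40.7% higher and 27% lower, so most genes were called. Scaling mattered here: median-of-ratios scaling moved the median log2 fold change of all genes to -0.05, against 0.08 as deposited, and the share of higher genes among calls to 43.7%, against 60.1% as deposited; with quantile normalization that share was 49.0%. Values below are on the deposited scale, and small ones move with it.

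Nodal itself had 51.5 and 46.0 RPKM with arsenite, against 46.6 and 45.0 without. The libraries overlapped, the log2 fold change was 0.086 ± 0.06 (adjusted p = 0.222), near the median of all genes, and it was -0.056 with median-of-ratios scaling. Without arsenite library 2 it was 0.17 and called (adjusted p = 0.0326). The ratio of Tdgf1 to Nodal was 1.80 and 1.79 with arsenite and 10.4 and 11.04 without, a ratio that scaling of whole libraries cannot change.

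**Figure D3:**
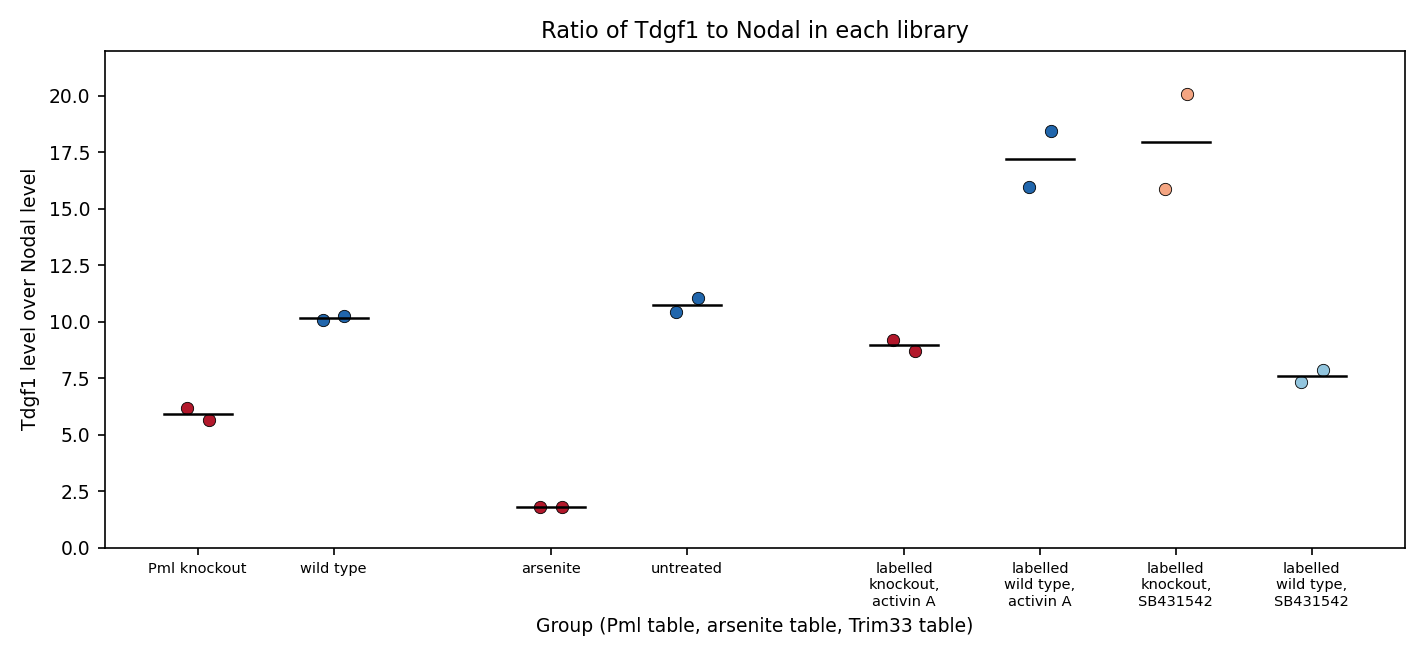
Ratio of the Tdgf1 level to the Nodal level (y axis, no unit) in each of the 16 libraries (points; short lines are group means of 2), with the Pml, arsenite and Trim33 tables from left to right. The ratio is 1.80 and 1.79 with arsenite, against 10.4 and 11.04 without, and runs from 7.31 to 20.1 in the Trim33 table.

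The receptor and SMAD genes moved less. Acvr1b had 20.8 and 20.3 RPKM with arsenite, against 24.5 and 25.5 without (-0.27 ± 0.05, adjusted p = 0.00169), and kept its call in all 8 alternatives. Acvr2b had 8.95 and 9.76 RPKM with arsenite, against 10.1 and 10.3 without (-0.12 ± 0.07, adjusted p = 0.152). Under median-of-ratios scaling it passed as lower (-0.25, adjusted p = 0.00964), and quantile normalization gave -0.26 (adjusted p = 0.0108). Acvr2a had 5.51 and 6.36 RPKM with arsenite, against 5.18 and 4.87 without (0.20 ± 0.09, adjusted p = 0.0742), and was called without arsenite library 1 (0.29, adjusted p = 0.0414). Over the 8 alternatives the log2 fold change of Acvr2a ran from 0.039 to 0.29. The type II receptor genes thus lay on opposite sides of their untreated levels, with neither called on the deposited scale with all libraries.

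Smad4 had 46.8 and 48.6 RPKM with arsenite, against 40.3 and 38.3 without (0.27 ± 0.05, adjusted p = 0.00117), and was called in all 8 alternatives, at 0.13 with median-of-ratios scaling. Smad3 had 4.33 and 3.97 RPKM with arsenite, against 3.55 and 3.14 without (0.25 ± 0.09, adjusted p = 0.0432). Its call was lost in 6 of 8 alternatives, with adjusted p up to 0.582 under quantile normalization. Smad2 had 8.21 and 8.45 RPKM with arsenite, against 8.17 and 8.01 without; its log2 fold change of 0.038 turned to -0.091 and -0.12 with median-of-ratios scaling and quantile normalization, and it was called in none of the 8 alternatives.

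ES cell markers and markers of other cell types moved as well with arsenite: the 8 ES cell markers summed to 2768 and 2662 RPKM, against 4931 and 4840 without, with 7 called lower and 1 higher. The 8 trophectoderm markers summed to 161 and 165 RPKM with arsenite, against 94.6 and 96.0 without, with 5 of 6 tested called higher, 1 lower, and Elf5 listed at 0 with arsenite. The 8 fibroblast markers summed to 159 and 162 RPKM, against 68.5 and 68.1, with 3 of 4 tested called higher, 1 lower, and Lum listed at 0 in both groups. The 6 primitive endoderm markers summed to 14.3 and 15.5 RPKM with arsenite, against 8.11 and 7.86. Of these, 3 of 4 tested were called higher, and 5 averaged under 1 without arsenite. The 6 mesendoderm markers summed to 3.97 and 4.45 RPKM with arsenite, against 2.11 and 2.64. All 6 averaged under 1 without arsenite and 5 with it, and the 1 tested, Wnt3, was called higher. Other cell type markers were thus in part near the floor. Their part in the changes of the 9 genes was not tested.

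Other genes of the pathway were also called with arsenite, where 67.7% of all genes tested were called, 40.7% higher and 27% lower. Of 4 tested ligand genes, 2 rose and 2 fell (median log2 fold change 0.01, against 0.08 over all genes): Inhbb fell to 1.28 RPKM with arsenite, against 8.21 without, and Gdf3, which encodes a Nodal-related ligand, fell to 39.0, against 49.7. Of 8 tested inhibitor genes, 4 rose and 3 fell (median -0.01). Lefty2 had 10.7 RPKM with arsenite, against 76.5 without, and Lefty1 35.8, against 98.9, so the ratio of Lefty2 to Nodal was 0.206 and 0.232, against 1.73 and 1.61. Of 12 inhibitory SMAD, corepressor and ubiquitin ligase genes, 6 rose and 3 fell (median 0.16): the inhibitory SMAD genes Smad6 (9.99 RPKM with arsenite, against 1.73) and Smad7 (47.8, against 26.4) rose, and the corepressor gene Tgif1 (43.7, against 97.4) fell. Of 7 partner and adaptor genes, 3 rose and 1 fell (median 0.09), the coactivator gene Ep300 among the risers (29.3, against 22.2). Of 3 tested other receptor and co-receptor genes, 2 rose (median 0.78), with Eng at 37.6 RPKM, against 17.9. Of 2 tested convertase genes none was called (median -0.02). Of 5 tested genes of the BMP branch, 3 rose (median 0.27), with Bmpr2 at 3.44, against 1.73. Of 6 tested target genes, 2 rose and 3 fell (median -0.35), with Eomes, a mesendoderm and trophectoderm transcription factor gene, rising to 10.8 RPKM, against 2.31.

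In the Trim33 table Nodal and Tdgf1 lay on opposite sides between the genotype labels within each treatment, without a call for either with activin A, and the 6 receptor and SMAD genes were called in no comparison. Nodal had 61.2 and 58.1 RPKM in Trim33-knockout libraries with activin A, against 43.0 and 41.2 in wild type with activin A. Tdgf1 had 563 and 507 RPKM in knockout with activin A, against 685 and 760 in wild type. Nodal was higher and Tdgf1 lower in both knockout libraries, with log2 fold changes of 0.49 ± 0.14 (SE) and -0.43 ± 0.13. Neither passed (limma, adjusted p = 0.0598 and 0.0728). None of the 9 was called in this comparison, where 9.43% of 11914 genes were; 2 of the 9 had an unadjusted p under 0.05, and limma was the only tool run. Nodal passed in a fit of these 4 libraries alone (adjusted p = 0.0209).

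Foxh1 had 37.4 and 42.2 RPKM in knockout with activin A, against 33.6 and 35.8 in wild type (0.19 ± 0.12, adjusted p = 0.353). The 6 receptor and SMAD genes had log2 fold changes between -0.12 (Smad3) and 0.08 (Smad2), with 95% intervals that reached from -0.58 to 0.68. That range joins the intervals of 6 genes, and the interval of Smad2 alone ran from -0.25 to 0.41. With 2 libraries a group, the data are compatible with any change inside a gene's own interval. Over the 8 libraries of this table Smad2 ran from 8.20 to 10.6 RPKM, Smad4 from 13.3 to 17.8, Smad3 from 2.44 to 3.34, Acvr1b from 2.99 to 5.71, Acvr2a from 2.77 to 4.11 and Acvr2b from 3.53 to 7.46. Of other pathway genes, Gdf3 (128 RPKM in knockout, against 78.6 in wild type), Eng (8.03, against 4.31) and the ubiquitin ligase gene Wwp2 (28.5, against 19.6) rose. None of 6 tested inhibitor genes and none of 7 tested target genes was called (medians -0.12 and -0.43, against 0.01 over all genes); Lefty1 stood at 219 RPKM, against 334 (adjusted p = 0.293). Pml was at 20.2 and 23.1 RPKM in knockout, against 35.6 and 29.2 in wild type (adjusted p = 0.0504, not called). Among the markers 1 of 8 ES cell genes and 1 of 6 tested fibroblast genes were called higher; the trophectoderm markers summed to 257 and 188 RPKM in knockout, against 201 and 151 in wild type, and the fibroblast markers to 356 and 216, against 222 and 249.8.

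With SB431542 the same genes lay in the reverse order of the labels. Nodal had 34.9 and 28.4 RPKM in the libraries labelled knockout, against 58.2 and 48.5 in those labelled wild type (-0.74 ± 0.14, adjusted p = 0.0164), the 1 call among the 9, where 9.56% of all genes were called. That call was lost on leaving out the second library labelled knockout (adjusted p = 0.0598) or the first labelled wild type (adjusted p = 0.0968). Tdgf1 had 553 and 571 RPKM in the libraries labelled knockout, against 425 and 381 in those labelled wild type (0.48 ± 0.13, adjusted p = 0.0540). Foxh1 had 34.1 and 35.5 RPKM in the libraries labelled knockout, against 37.8 and 41.9 in those labelled wild type (-0.19 ± 0.12, adjusted p = 0.365). The 6 other genes lay between -0.17 (Acvr1b) and 0.20 (Acvr2b). Acvr2b had 3.53 and 7.46 RPKM in the libraries labelled knockout, against 4.21 and 4.58 in those labelled wild type, and without the first of them its value was 0.65 (adjusted p = 0.0604). Of the ES cell markers 2 of 8 were called lower in the libraries labelled knockout, Zfp42 (38.8 RPKM, against 85.5 in those labelled wild type) and Nanog (93.2, against 215), and none of the other marker lists had a call. Their part in the Nodal difference was not tested. The 4 libraries with the highest Nodal (48.5 to 61.2 RPKM) were those with Trim33 at 2.44 to 2.94 RPKM, by label knockout with activin A and wild type with SB431542; the other 4 had Nodal at 28.4 to 43.0 and Trim33 at 18.3 to 24.6. The same 4 high-Nodal libraries were also those with Eif2s3y at most 0.143 RPKM, so Trim33, the cell line and Nodal moved together and cannot be told apart.

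**Figure D4:**
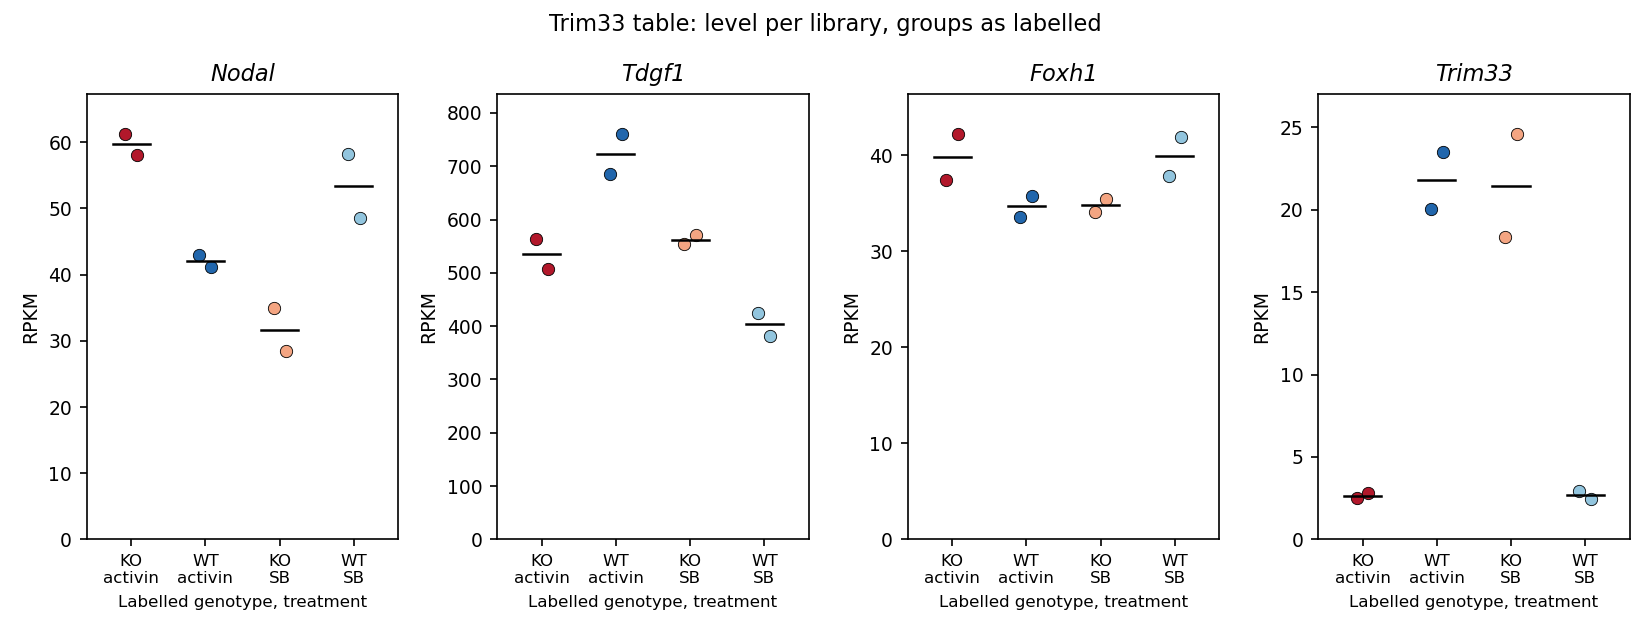
Level (y axis, RPKM, from 0) of Nodal, Tdgf1, Foxh1 and Trim33 in each of 8 libraries (points; short lines are means of 2), by labelled genotype (knockout, KO, left of wild type, WT) within activin A and within SB431542 (SB). Trim33 is at 2.44 to 2.94 in the libraries labelled KO with activin and WT with SB, and Nodal is at 48.5 to 61.2 in those libraries and at 28.4 to 43.0 in the others.

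The difference between genotype labels itself differed between treatments, as labelled. For Nodal the label difference in activin A minus that in SB431542 was 1.23 ± 0.20 on the log2 scale (adjusted p = 0.00284), and for Tdgf1 it was -0.91 ± 0.19 (adjusted p = 0.00819). These were 2 of the 9 genes, in a test that called 26.3% of all genes. Both were called under all 13 alternatives, each of which kept the labels as given. Trim33 gave -5.23 ± 0.25 and Eif2s3y -10.49 ± 0.21 in the same test, with their signs turned in the same libraries. Within both treatments Nodal was higher and Tdgf1 lower in the libraries with low Trim33. Whether either difference depends on treatment was not tested apart from the labels that Trim33 contradicts. Markers were called in this test as well: of the ES cell markers Zfp42 (2.36 ± 0.28) and Nanog (2.25 ± 0.43) were higher and Klf4 (-1.23 ± 0.32) lower. Of 6 tested fibroblast markers 3 were higher (Col1a1 at 3.49 ± 1.12, Col1a2 at 2.97 ± 0.90 and Thy1 at 1.55 ± 0.32). The trophectoderm marker Gata3 was higher (1.84 ± 0.58) and the mesendoderm marker T lower (-2.89 ± 0.64). Their part in the values of Nodal and Tdgf1 was not tested.

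Activin A against SB431542 asked which transcripts follow receptor activity within 2 h. Averaged over both genotype labels, which does not depend on which label each SB431542 group should carry, none of the 9 was called. Nodal was higher with activin A by 0.29 ± 0.10 on the log2 scale (95% interval 0.06 to 0.51, adjusted p = 0.9996) and Tdgf1 by 0.38 ± 0.09 (0.17 to 0.59, adjusted p = 0.505). Both had overlapping libraries between treatments. Each treatment pools libraries with low and with high Trim33, between which Nodal and Tdgf1 lay apart. The overlap therefore does not measure the treatment difference alone. Nodal and Tdgf1 were the 2 genes of the 9 with an unadjusted p under 0.05. Foxh1 differed by -0.0037 ± 0.08 (-0.20 to 0.19), and the 6 receptor and SMAD genes lay between -0.09 (Smad3) and 0.16 (Acvr2b), with intervals that reached from -0.40 to 0.58. Over all genes only 13, or 0.109%, were called in this comparison, all higher with activin A. Genes of the feedback inhibitors were among them: Lefty1 averaged 277 RPKM with activin A, against 17.4 with SB431542 (4.04 ± 0.24, adjusted p = 5.57e-04), the inhibitory SMAD gene Smad7 22.5, against 3.51 (2.40 ± 0.16, adjusted p = 7.64e-04), and Pmepa1, whose product binds SMADs, 6.73, against 1.81 (1.45 ± 0.15, adjusted p = 0.0110). Of 12 target genes 7 were tested and 3 of them rose (median 1.93, against -0.01 over all genes), of 12 inhibitory SMAD, corepressor and ligase genes 2 rose (median 0.21), and of 6 tested inhibitor genes 1 rose (median 0.17). No gene of the ligand, other-receptor, convertase, partner or BMP lists was called.

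**Figure D5:**
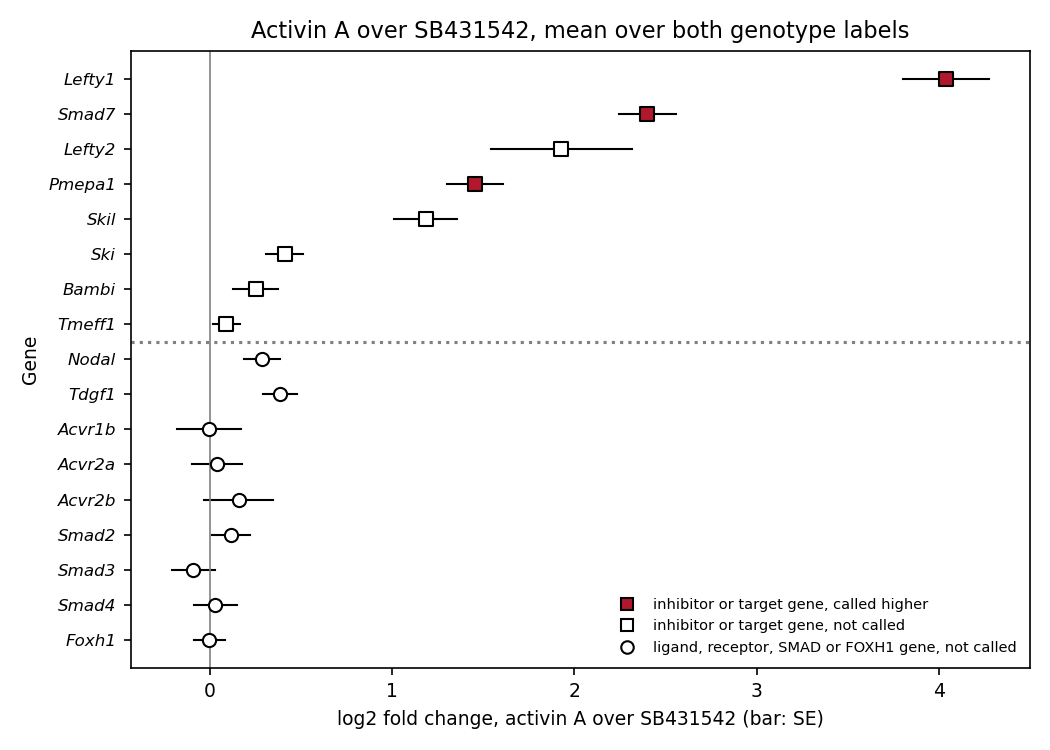
Log2 fold change (x axis, on the log2(value + 1) scale; bars are SE) of activin A over SB431542, averaged over both genotype labels (4 libraries a treatment), for inhibitor and target genes chosen by the smallest p in their lists (squares, red where called) and for the 9 pathway genes (circles). Lefty1 is at 4.04, Smad7 at 2.40 and Pmepa1 at 1.45, while the 9 circles lie between -0.09 and 0.38 with none called.

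Within the genotype labels the activin A comparisons rest on the labels that Trim33 contradicts, and they share their libraries with the comparisons above. In libraries labelled wild type, Tdgf1 was at 685 and 760 RPKM with activin A, against 425 and 381 with SB431542 (0.84 ± 0.13, adjusted p = 0.00653). It was the 1 call among the 9, where 11.3% of all genes were called, and it was lost without the second activin A library (adjusted p = 0.0799). In libraries labelled knockout, Nodal was at 61.2 and 58.1 RPKM with activin A, against 34.9 and 28.4 with SB431542 (0.90 ± 0.14, adjusted p = 0.00716), again the 1 call, where 10.5% of all genes were called, and it was lost without the first activin A library (adjusted p = 0.0594). Nodal in libraries labelled wild type differed by -0.33 ± 0.14 (adjusted p = 0.167) and Tdgf1 in those labelled knockout by -0.07 ± 0.13 (adjusted p = 0.777). Foxh1 was called in neither, at -0.19 ± 0.12 in libraries labelled wild type and 0.19 ± 0.12 in those labelled knockout. Averaged over both labels the differences were 0.29 for Nodal and 0.38 for Tdgf1. Each is by construction the mean of both within-label values, so it must lie below the larger of them. ES cell markers called in these comparisons were Zfp42, lower with activin A in libraries labelled wild type (36.3 RPKM, against 85.5 with SB431542), and Zfp42, Nanog (both higher) and Klf4 (lower) in libraries labelled knockout; their part was not tested.

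The genes whose pattern over the 16 libraries lay closest to that of Nodal, Tdgf1 and Foxh1 were ranked among 10488 genes tested in all tables, by the root-mean-square difference of log2(value + 1) after each table's mean was removed. For Nodal, whose own root-mean-square deviation was 0.274, they were Aebp2 (difference 0.106), Itgb5 (0.109) and Pcx (0.118). Aebp2, which encodes an accessory protein of Polycomb repressive complex 2, had 27.1 and 24.8 RPKM in Trim33 knockout with activin A, against 16.7 and 14.9 in wild type with activin A. In the Pml table it had 25.7 and 25.7 FPKM in knockout, against 22.4 and 23.3 in wild type. For Tdgf1, with a deviation of 0.664 of its own, they were Zcchc3 (0.187), Txnip (0.224) and Anp32a (0.239). Zcchc3, which encodes a zinc finger protein, had 7.90 and 7.77 RPKM with arsenite, against 36.6 and 35.1 without. For Foxh1, with 0.266, they were Frat2 (0.0927), E2f4 (0.0980) and H2afy2 (0.106). Frat2, which encodes a GSK3-binding protein, had 9.39 and 9.04 RPKM with arsenite, against 16.3 and 16.9 without. The libraries fall into 8 groups of 2, so they are not independent points, and this likeness is a description over 16 libraries and not a test.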

How the data were processed

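RNA was sequenced from 16 libraries of mouse ES cells, 2 in each of 8 groups, taken from the sample titles. Per the labels, libraries were made with an Illumina TruSeq RNA kit; build mm10 and the tools featureCounts 2.0.1, Bowtie2 2.3.3, SAMtools 1.9, FastQC 0.11.5 and DESeq2 appear, without roles, in the submitters' processing notes. Strand handling is not stated there. The authors deposited FPKM values for the Pml table and RPKM values for the arsenite table. No unit is named for the Trim33 table, whose deposited values were read as RPKM. For 93.5% to 99.1% of low values of single-exon genes, value times length was whole within 0.05 reads (93.2% to 96.9% in the arsenite table, 29.2% to 37.8% in the Pml table). Whole fragments would give such steps too, so this check does not tell RPKM from FPKM. Depth limits precision for counting error only: 1 RPKM was 31.1 to 48.4 reads per kilobase.

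From these values log2(value + 1) was tested with limma 3.58.1 in R 4.3.3 (lmFit, eBayes with trend, two-sided, Benjamini-Hochberg over all genes tested, call at adjusted p under 0.05), keeping genes of at least 1 in at least 2 libraries, after 27 date-like names per table were left out. A low gene could thus pass through the group where it was high, which limits the counts over lists. Each 4-library table had its own fit (2 residual degrees of freedom), and the 8-library Trim33 table was fitted as group means (4 residual degrees of freedom). The fits were tested on simulated data. No library pair held identical values. Over 77 to 94 single-exon genes a group, replicates differed by more than sampling noise (chi-square over its degrees of freedom 3.12 to 3.58 for arsenite, 9.92 to 26.9 for Trim33). Other genes, and the Pml table with its unknown depth, were not checked in this way. Each library counted as 1 replicate. The 2 untreated columns carry no number that matches their titles. Columns with values of other samples numbered 0.

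The 9 genes, the 8 pathway lists and the 5 marker lists were chosen with earlier results of these data known. Named genes were the 9, Pml, Trim33 and Eif2s3y, up to 4 genes per list with the smallest p per comparison (those printed were picked from these with their values known; 1 gene of the target list enters the counts and is not reported here by name), and the 3 nearest patterns for Nodal, Tdgf1 and Foxh1. Alternatives were another pseudocount (0.1), no filter, median-of-ratios scaling, quantile normalization, a replicate block, fits of 2 groups alone and leaving out each library. Python 3.11.15, pandas 2.3.3, numpy 2.4.6 and matplotlib 3.10.9 were used for depth, sequences and figures.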

Additional observations from a re-analysis of the deposited data

Results flagged for a closer look

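For 2 of the 9 genes the difference between the genotype labels differed between activin A and SB431542 in limma's interaction test in the Trim33 table. For Nodal the label difference (knockout minus wild type) was 0.49 ± 0.14 on the log2 scale with activin A and -0.74 ± 0.14 with SB431542 (SE), so the interaction was 1.23 ± 0.20 (adjusted p = 0.00284; 0.00179 to 0.0166 over 13 alternatives). For Tdgf1 the label difference was -0.43 ± 0.13 with activin A and 0.48 ± 0.13 with SB431542, an interaction of -0.91 ± 0.19 (adjusted p = 0.00819; 0.00788 to 0.0489 over 13 alternatives). Both libraries of each group lay beyond both of the other group within each treatment, in opposite directions between treatments. Trim33 itself turned round between treatments in the same libraries (-2.63 ± 0.18 with activin A and 2.59 ± 0.18 with SB431542), against the genotype labels of the SB431542 libraries. Whether the Nodal or Tdgf1 difference depends on treatment was not tested apart from those labels, which all 13 alternatives kept.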

How the results depend on the processing

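With no filter on low values 3 of the 9 genes were called in the Pml knockout (5 as reported) and 8 genes in the mean activin A comparison (13 as reported). A fit of the 2 groups alone called 1 of the 9 and 1852 genes for Trim33 knockout with activin A (0 and 1123 as reported), 608 genes between the labels with SB431542 (1139) and 753 for activin A in libraries labelled knockout (1248). Leaving out 1 library at a time gave 4 to 5 of the 9 and 2985 to 3895 genes in the Pml knockout, 4 to 5 of the 9 and 6420 to 7482 genes with arsenite, and 0 of the 9 and 185 to 355 genes for Trim33 knockout with activin A. It gave 0 to 1 of the 9 and 294 to 1036 genes between the labels with SB431542, 0 of the 9 and 7 to 16 genes in the mean activin A comparison, 0 to 1 of the 9 and 268 to 566 genes in libraries labelled wild type, 0 to 1 and 230 to 1016 in those labelled knockout, and 2 of the 9 and 1853 to 3395 genes in the interaction. Fewer libraries leave fewer degrees of freedom. Any 1 of the 4 libraries moved the count for Trim33 knockout with activin A and for libraries labelled wild type by over 1.5 times. Among calls the share of higher genes was 57.9% with quantile normalization (70.1% as deposited) for Trim33 knockout with activin A, 41.7% (31.5%) between the labels with SB431542, 57.8% (68.6%) for activin A in libraries labelled knockout and 49.5% (61.5%) in the interaction.

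Directions turned for values that were not called. Acvr1b in the Pml knockout ranged from -0.22 to 0.027 without 1 library. With arsenite, median-of-ratios scaling gave Nodal -0.056 and Smad2 -0.091, and quantile normalization gave Smad2 -0.12. Foxh1 in the mean activin A comparison was 0.0069 with quantile normalization and -0.046 to 0.038 without 1 library, and Tdgf1 in libraries labelled knockout was -0.15 to 0.0037 without 1 library. Of the 36 values of the receptor and SMAD genes in the 6 comparisons of the Trim33 table, 29 changed sign in at least 1 alternative and 0 were called in any. The cause of these changes was not tested.

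The correlation of deviations between same-numbered replicates was 0.02 in the Pml table and ran from -0.14 to 0.60 in the Trim33 table, where 4 of 6 pairs of groups were positive. Since it was not over 0.1 for every pair of groups and no label ties the numbers together, the libraries were not treated as paired, although some shared deviation in the Trim33 table is not excluded. The highest values there joined groups with like Trim33 levels. They were 0.60 between knockout with activin A and wild type with SB431542, and 0.37 between knockout with SB431542 and wild type with activin A, as labelled. The other pairs ran from -0.14 to 0.21. With a replicate block, 5 of the 9 and 4324 genes were called in the Pml knockout, 1 of the 9 (Nodal, adjusted p = 0.0268) and 1584 genes for Trim33 knockout with activin A, and 23 genes in the mean activin A comparison. The replicate block was not run for arsenite, because the untreated columns carry no matching number. Depth is unknown for the Pml table.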

Other observations

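Of 4 ratios between receptor or SMAD genes, 2 did not overlap between any of the tables, a pattern picked after the values were seen. The ratio of Acvr1b to Acvr2b was 2.08 to 2.47 in the 4 libraries of the arsenite table, 1.23 to 1.502 in the Pml table and 0.680 to 1.14 in the Trim33 table. The ratio of Smad4 to Smad2 was 4.78 to 5.75 in the arsenite table, 2.72 to 3.22 in the Pml table and 1.39 to 1.84 in the Trim33 table. Each of the other ratios overlapped between a pair of tables and lay higher in the remaining table. Acvr2b to Acvr2a was 1.04 to 2.03 in Trim33-table libraries, against 1.53 to 2.12 in those of arsenite and 2.24 to 3.65 in those of Pml. Smad2 to Smad3 was 1.27 to 2.12 in Pml-table libraries, against 1.89 to 2.55 in those of arsenite and 2.62 to 3.95 in those of Trim33. Ratios within a library do not depend on library scaling, but the gene lengths behind each table are not given, the tables share no libraries and their difference was not tested.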
